A study of Mus musculus with 6 samples.

Results

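Ureteric bud and general epithelial genes were examined as a group of 40 genes, taken by symbol from a list of ureteric, keratin, claudin and epithelial junction genes, out of 27179 gene entries measured. Of these, 9 are regulators of the ureteric bud or genes of the collecting duct, and 31 are grouped as general epithelial genes, some of which, such as Cdh16 and Cldn8, are typical of kidney tubules and ducts. RNA came from nephron progenitors of E16.5 mouse kidneys, sorted by the green fluorescent protein that the Six2TGC transgene places under Six2 control. Mutant progenitors were labelled Six2TGC;miR-17~92fl/fl, so their miR-17~92 microRNA cluster was floxed and the Cre recombinase of Six2TGC was present to remove it. Control progenitors were labelled Six2TGC alone, so both genotypes carried the transgene. No floxed allele is named for the controls, and no strain for either genotype. Each genotype had 3 libraries, each a pool from 4 embryos. A difference due to the deletion and one due to genetic background cannot be told apart in this design, and Six2-driven Cre limits the deletion to cells that express Six2 and their descendants.

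The kidney forms from a branching epithelial tube, the ureteric bud, and from a mesenchyme around its tips that holds the nephron progenitors. Progenitors give rise to the renal vesicle and then to the epithelium of the nephron, whereas the ureteric bud becomes the collecting duct. Epithelial cells are joined by cadherin-based adherens junctions, are sealed at the apical side by claudins, occludin and tricellulin, are braced inside by keratins, and carry a distinct apical membrane. Sorted nephron progenitors are mesenchymal cells, which lack this full set of epithelial structures.

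Promoters of 4 members on which the results turn are shown because their genes had the group's called difference (Mal), 2 of its lowest p-values (Tfcp2l1, Spint2) and its most abundant adhesion transcript (Epcam). Sequences are from RefSeq (build GRCm38.p6), run 5′ to 3′ on the strand of the gene, and span 250 bases before to 50 bases after the RefSeq start. They lie at chr2:127656646-127656945 on the minus strand (Mal), chr1:118627695-118627994 on the plus strand (Tfcp2l1), chr17:87635729-87636028 on the plus strand (Epcam) and chr7:29281928-29282227 on the minus strand (Spint2, whose RefSeq start lies outside the GENCODE gene span given later). Capitals mark an E-box of the letters CACCTG on either strand (CAGGTG when read on the other), the core bound by Snail and Zeb repressors of epithelial genes.
Mal: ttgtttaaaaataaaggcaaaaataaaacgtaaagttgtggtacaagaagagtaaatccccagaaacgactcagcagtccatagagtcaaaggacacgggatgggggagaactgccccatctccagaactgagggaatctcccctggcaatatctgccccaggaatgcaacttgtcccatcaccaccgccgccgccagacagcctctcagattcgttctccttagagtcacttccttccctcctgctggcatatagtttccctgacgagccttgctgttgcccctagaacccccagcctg
Tfcp2l1: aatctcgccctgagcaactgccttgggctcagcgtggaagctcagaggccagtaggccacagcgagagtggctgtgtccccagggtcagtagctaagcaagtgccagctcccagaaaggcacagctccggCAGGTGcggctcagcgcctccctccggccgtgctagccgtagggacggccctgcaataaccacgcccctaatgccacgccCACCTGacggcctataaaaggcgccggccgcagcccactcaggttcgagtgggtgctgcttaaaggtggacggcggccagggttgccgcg
Epcam: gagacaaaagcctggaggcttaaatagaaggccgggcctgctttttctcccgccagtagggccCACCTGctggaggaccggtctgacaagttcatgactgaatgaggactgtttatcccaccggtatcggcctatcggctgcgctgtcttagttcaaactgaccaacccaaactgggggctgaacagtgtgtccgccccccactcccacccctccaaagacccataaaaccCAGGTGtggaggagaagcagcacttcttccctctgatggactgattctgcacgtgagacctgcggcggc
Spint2: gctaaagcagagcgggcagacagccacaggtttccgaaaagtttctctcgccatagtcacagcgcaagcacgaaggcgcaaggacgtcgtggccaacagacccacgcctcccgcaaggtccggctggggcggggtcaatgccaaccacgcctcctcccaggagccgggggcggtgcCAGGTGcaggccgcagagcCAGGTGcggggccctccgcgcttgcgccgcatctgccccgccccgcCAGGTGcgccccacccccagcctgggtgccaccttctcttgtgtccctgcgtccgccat
The first base of each E-box lay at -120 and -40 in Tfcp2l1, at -187 and -19 in Epcam, and at -74, -55 and -9 in Spint2, counted backwards from the start site. These letters did not occur in the Mal window. Among the 26 members with a RefSeq promoter entry, 20 (76.9%) held the E-box, as did 6098 (22.6%) of all 27025 genes with an entry. The letters GTTAAT, the core of a site for the tubule factor HNF1, were in the promoter of 1 of the 26 members (Spint1, 3.85%), against 8.24% of all genes. AACCGGTT, a site for grainyhead factors, occurred in 0 of the 26 and in 0.174% of all genes. Both strands were searched for each motif, no matches overlap in the printed promoters, and a match describes letters only.

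From the deposited RPKM values (reads per kilobase of gene, scaled to library depth), depths came out at 27602025 to 30264067 reads in mutant libraries and 28117790 to 36134381 in control libraries. One read on a gene of 1 kb was thus worth 0.0277 to 0.0362 RPKM. Mir17, the first microRNA of the targeted cluster, had 2, 0 and 0 reads in mutants 1, 2 and 3, against 31, 26 and 16 in controls 1, 2 and 3. Its host transcript Mir17hg stood at 183 to 259 RPKM in mutants and 33.6 to 52.9 RPKM in controls. The X-linked transcript Xist ranged from 60.1 to 180 RPKM in mutants and from 0.0278 to 154 RPKM in controls, with almost none in controls 2 and 3. The mix of embryo sexes may thus have differed between pools, and its part in the differences between genotypes was not tested. Six2, which marks the sorted cells, averaged 65.8 RPKM in mutants and 85.7 RPKM in controls. Its groups overlapped, with 77 RPKM in mutant 3 and 69.9 RPKM in control 2 (limma adjusted p = 0.249). Genes were tested where the 6 libraries averaged 0.5 RPKM or more, and of these 13463 genes 422 passed limma's test at an adjusted p of 0.05 (178 higher and 244 lower in mutants). Scaling by median of ratios moved that split to 282 higher and 156 lower, and quantile normalization moved it to 264 higher and 163 lower. The median log2 fold change of all tested genes was -0.12 on the log2(RPKM + 0.5) scale, and -0.01 after median-of-ratios scaling.

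Levels of the 40 genes were low in both genotypes. Only 18 reached the mean of 0.5 RPKM needed for the test, the lowest of them being Cdh1 at 0.504 RPKM, and 22 fell under it, the highest being Gata3 at 0.384 RPKM. In mutants 18 of the 40 genes averaged at least 0.5 RPKM, against 12 in controls. Cdh1, Cdh16, Cldn8, Tfcp2l1, Mal and Mal2 averaged under 0.5 RPKM in controls, so they entered the test through their mutant values, and counts over the tested genes are given as descriptions. Most abundant per length, as means over all libraries, were Spint2 (7.69 RPKM), Prom1 (7.47 RPKM), Epcam (7.24 RPKM) and Sox9 (5.92 RPKM), whose ranges over the libraries overlapped. The next in order, Lsr, averaged 2.4 RPKM. Of the markers that define the ureteric tip and the collecting duct, Ret lay between 0.0194 and 0.26 RPKM, and Aqp2 had at most 4 reads in any library.

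**Figure D1:**
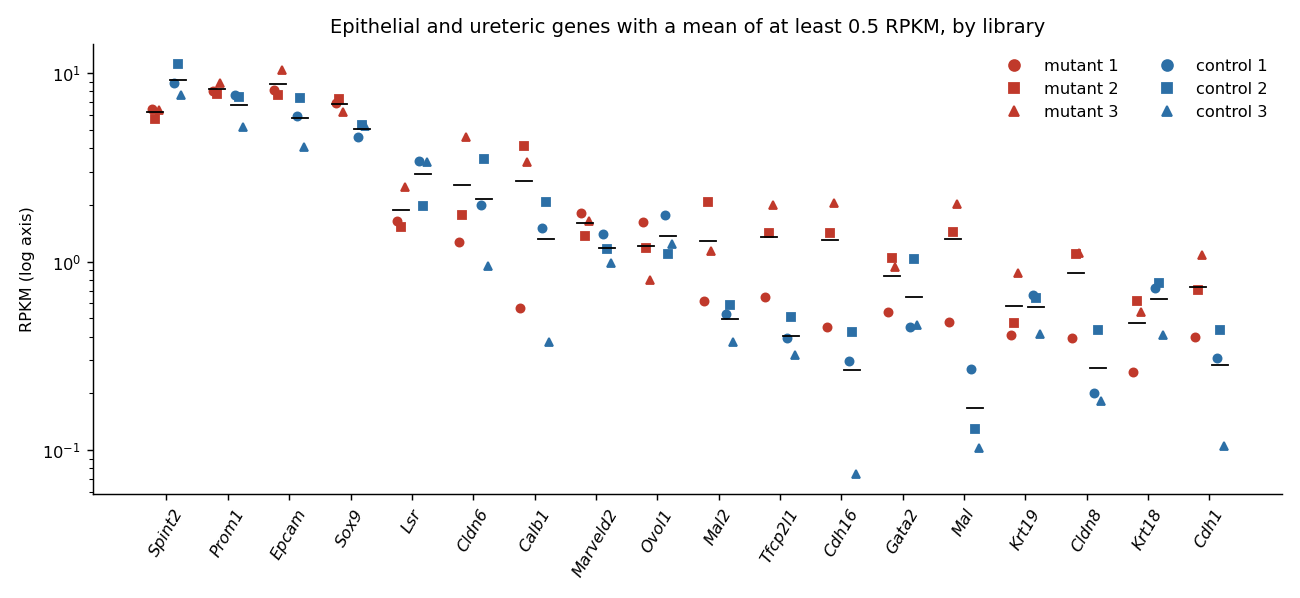
RPKM (log axis) of the 18 members averaging 0.5 RPKM or more, in each mutant library (red) and each control library (blue), with black lines at the group means. Spint2, Prom1, Epcam and Sox9 stand above the rest, and Mal shows the widest gap between the genotypes (means of 1.31 RPKM in mutants and 0.167 RPKM in controls).

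One of the 18 tested members, Mal, rose in mutant progenitors, none fell, and 17 did not pass limma's test. Over all tested genes 3.13% passed in either direction, and 1.32% passed with a higher level in mutants. At an unadjusted limma p under 0.05, 8 members were higher in mutants (5.94% of all tested genes were) and 2 were lower (13.7% of all tested genes were). Mutant and control values did not overlap for 7 tested members with higher values in mutants (7.06% of all tested genes) and for 1 with lower values (18.0% of all tested genes). Both counts of higher members include Cdh16, Tfcp2l1, Mal and Mal2, and the first also includes Cdh1 and Cldn8, all of which entered the test through their mutant values. These counts, the call of Mal and the median over the tested members are therefore no support for an excess over all tested genes. The log2 fold change was positive for 13 of the 18 (14 with median-of-ratios scaling, where Krt19 changes sign). Its median was 0.36 over the 18 members, against -0.12 over all tested genes. With no filter on low values the 40 members had a median of 0.19, against -0.02 over the 23229 entries with any value, which are not matched to the members in level. In bulk RNA, more cells of a type and more RNA per cell cannot be told apart.

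**Figure D2:**
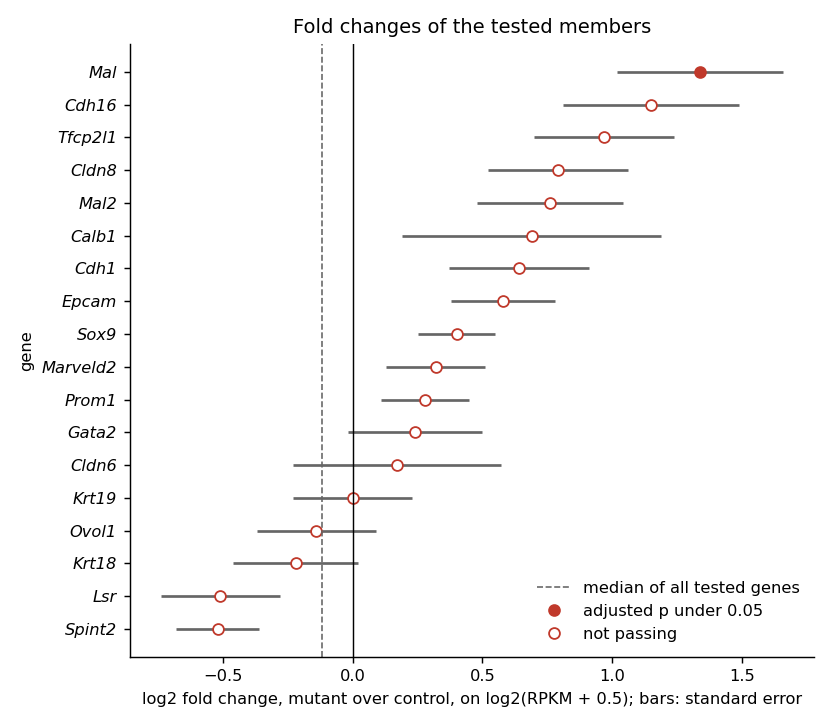
Log2 fold change, mutant over control, on the log2(RPKM + 0.5) scale for the 18 tested members, with bars of 1 standard error. Filled points passed an adjusted p of 0.05 (Mal, 1.34), and the dashed line is the median of all tested genes (-0.12).

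Among the genes of the apical membrane, Mal (Entrez Gene 17153; chr2:127633226-127656695, minus strand, mm10), a membrane proteolipid that sorts cargo to the apical surface, had the largest difference. Mal stood at 0.476, 1.43 and 2.03 RPKM in mutants 1, 2 and 3, against 0.269, 0.13 and 0.102 RPKM in controls 1, 2 and 3. Every mutant library lay above every control library, and mutants 2 and 3 were far above mutant 1. The means were 1.31 ± 0.786 RPKM in mutants and 0.167 ± 0.0892 RPKM in controls (SD, n = 3 each), and limma gave a log2 fold change of 1.34 (SE 0.32, adjusted p = 0.0431). In reads, Mal had 40, 110 and 156 in mutants and 22, 13 and 8 in controls, a depth-adjusted ratio of 7.79 (exact 95% binomial interval 5.65 to 11, counting error only, as amplified reads are not independent molecules). Without mutant 2 limma's adjusted p was 0.239, without control 1 it was 0.0611, and without mutant 3 the mean of Mal was under the filter. Under the alternatives in which Mal could be tested, the call held in 8 of 15, with limma's adjusted p from 0.0065 to 0.239.

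Mal2, a relative of Mal that acts in transcytosis to the apical membrane, had 0.619, 2.08 and 1.14 RPKM in mutants and 0.526, 0.588 and 0.372 RPKM in controls. Its groups did not overlap, but the log2 fold change of 0.76 (SE 0.28) did not pass limma's test (adjusted p = 0.18). Prom1, which encodes prominin-1 of membrane protrusions, had 8.02, 7.69 and 8.89 RPKM in mutants against 7.6, 7.5 and 5.14 RPKM in controls. Its lowest mutant value lay just above its highest control value, control 3 was the lowest library, and limma's adjusted p was 0.368. A transcript on the opposite strand overlaps 424 exonic bases of Prom1, and the strand setting of the counting is not given in the sources used here. Rab25, a GTPase of apical recycling, lay under the filter at 0.238 to 0.786 RPKM in mutants and 0.16 to 0.47 RPKM in controls.

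All 3 cell adhesion genes had positive log2 fold changes, and none passed the adjusted test. Cdh16 (chr8:104601911-104624396, minus strand), the kidney-specific cadherin of tubule and ureteric epithelium, had 0.448, 1.41 and 2.04 RPKM in mutants and 0.297, 0.425 and 0.075 RPKM in controls. The order of its libraries was that of Mal within the mutants, with mutant 1 just above the highest control. Its log2 fold change was 1.15 (SE 0.34, limma adjusted p = 0.0987), and its read ratio was 4.55 (95% interval 3.59 to 5.82, counting error only). Without mutant 1 the adjusted p of Cdh16 was 0.0276 in limma, and without control 2 it was 0.0432. Cdh1 (E-cadherin, the core of epithelial adherens junctions) had 0.397, 0.71 and 1.08 RPKM in mutants and 0.307, 0.433 and 0.105 RPKM in controls, with mutant 1 inside the control range (limma adjusted p = 0.226). Epcam (chr17:87635979-87651129, plus strand), an epithelial surface adhesion molecule, had 8.11, 7.65 and 10.4 RPKM in mutants and 5.94, 7.36 and 4.04 RPKM in controls. Its groups did not overlap, its log2 fold change was 0.58 (SE 0.20), and limma's adjusted p was 0.157, or 0.0382 without control 2.

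Of the 10 tight junction genes 4 were tested, and none passed. Cldn8, a barrier claudin of the distal nephron and collecting duct, had 0.392, 1.1 and 1.11 RPKM in mutants and 0.201, 0.434 and 0.181 RPKM in controls. Mutant 1 lay below control 2, and the log2 fold change was 0.79 (SE 0.27, limma adjusted p = 0.153). Cldn6, a claudin of embryonic epithelia, had 1.27, 1.77 and 4.57 RPKM in mutants and 2, 3.49 and 0.945 RPKM in controls. Its value in mutant 3 stood apart, the groups overlapped, and without mutant 3 the log2 fold change was -0.28, against 0.17 with all libraries. Marveld2 (tricellulin, which seals corners where cells meet) had 1.81, 1.37 and 1.64 RPKM in mutants and 1.4, 1.17 and 0.988 RPKM in controls (limma adjusted p = 0.364). Lsr, which recruits tricellulin to those corners, went the other way, with 1.65, 1.52 and 2.48 RPKM in mutants and 3.41, 1.97 and 3.38 RPKM in controls. Mutant 3 lay above control 2, and limma gave a log2 fold change of -0.51 (SE 0.23, adjusted p = 0.245). Transcripts on the opposite strand overlap 971 bases of Lsr. The tight junction genes under the filter were Cldn3, Cldn4, Cldn7, Ocln, Tjp3 and Marveld3, and their groups overlapped. Cldn3 had 5 reads over the mutants and 0 over the controls, and Cldn4 had 4 and 0.

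The 4 keratins, which form the intermediate filaments of simple epithelia, gave no call. Krt18 had 0.26, 0.617 and 0.543 RPKM in mutants against 0.727, 0.771 and 0.406 RPKM in controls (log2 fold change -0.22, limma adjusted p = 0.608). Krt19 had 0.409, 0.471 and 0.87 RPKM in mutants against 0.666, 0.644 and 0.414 RPKM in controls (limma adjusted p = 0.993). Summed over the 4 keratins, the level was 0.82, 1.47 and 2.04 RPKM in mutants and 2.06, 1.69 and 0.879 RPKM in controls, so the ranges covered each other. Reads of Krt8 and Krt18 are uncertain, because 32.31% and 11.37% of their 31-base words also occur in a pseudogene copy or another gene.

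Among the epithelial transcription factors, Sox9, a regulator of ureteric tips and of some nephron precursors, had 6.94, 7.27 and 6.22 RPKM in mutants against 4.55, 5.29 and 5.24 RPKM in controls. These groups did not overlap and spread little, and the log2 fold change of 0.40 (SE 0.15) did not pass limma's test (adjusted p = 0.167). Ovol1, a zinc finger factor of epithelial differentiation, had 1.63, 1.18 and 0.8 RPKM in mutants and 1.77, 1.09 and 1.24 RPKM in controls (limma adjusted p = 0.741), with opposite-strand transcripts over 766 of its bases. Elf5, an Ets factor of epithelial lineages, was under the filter with 14, 32 and 7 reads in mutants and 7, 5 and 0 reads in controls. At 0.206, 0.513 and 0.113 RPKM in mutants and 0.106, 0.0616 and 0 RPKM in controls its groups did not overlap. Its read ratio was 4.83 (95% interval 2.55 to 9.94, counting error only). The exact two-sided permutation p was 0.1, the smallest that 3 against 3 libraries can give. Grhl2 and Elf3 did not exceed 0.242 RPKM in any library. The splicing regulators Esrp1 and Esrp2, which set epithelial isoforms, stayed at or below 0.298 RPKM.

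The ureteric bud regulators are Ret, the receptor through which GDNF drives budding, and the zinc finger factors Gata2 and Gata3. Gata2 was tested and had 0.54, 1.05 and 0.938 RPKM in mutants against 0.45, 1.03 and 0.461 RPKM in controls (limma adjusted p = 0.597). Gata3 had 0.185, 0.795 and 0.62 RPKM in mutants and 0.222, 0.362 and 0.122 RPKM in controls, a wide spread in which mutant 1 was below control 1. Ret had 8, 53 and 37 reads in mutants and 26, 56 and 4 in controls, so mutant 1 and control 3 had the fewest.

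In the collecting duct group Tfcp2l1 (chr1:118627945-118685168, plus strand), a transcription factor of that duct, had 0.652, 1.41 and 1.99 RPKM in mutants against 0.392, 0.505 and 0.318 RPKM in controls. All mutants lay above all controls, with means of 1.35 ± 0.672 RPKM in mutants and 0.405 ± 0.0938 RPKM in controls (SD, n = 3 each). The log2 fold change was 0.97 (SE 0.27, limma adjusted p = 0.0905, and 0.0338 without mutant 1). The read ratio was 3.22 (95% interval 2.85 to 3.64, counting error only, without the spread between libraries). Calb1, a calcium-binding protein of distal and connecting epithelium, had 0.565, 4.08 and 3.36 RPKM in mutants and 1.51, 2.08 and 0.372 RPKM in controls. Mutant 1 was below 2 of the controls, so the difference was smaller than the spread between libraries (log2 fold change 0.69, SE 0.50, limma adjusted p = 0.454). The water channels Aqp2 and Aqp3 had 5 and 4 reads over the mutants and 4 and 2 reads over the controls. Foxi1 and Atp6v1b1, a regulator and a proton pump subunit of intercalated cells, had 27 and 11 reads over the mutants and 14 and 8 over the controls.

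The serine protease St14 (matriptase) and its inhibitors Spint1 and Spint2 act at the surface of epithelial cells. Spint2 (chr7:29256323-29281912, minus strand) was the member with the lowest p among those lower in mutants, with 6.45, 5.72 and 6.4 RPKM in mutants and 8.83, 11.1 and 7.67 RPKM in controls. The groups did not overlap, and the means were 6.19 ± 0.409 RPKM in mutants and 9.2 ± 1.74 RPKM in controls (SD, n = 3 each). Its log2 fold change of -0.52 (SE 0.16) gave an adjusted p of 0.11 in limma, or 0.03 without control 3. St14 was under the filter and had 17, 16 and 17 reads in mutants against 6, 15 and 5 in controls (exact permutation p = 0.1). Its read ratio was 2.1 (95% interval 1.29 to 3.52, counting error only). Spint1 had 15, 32 and 33 reads in mutants and 29, 17 and 12 in controls, and its groups overlapped. Elf5 and St14 were the 2 of 22 members under the filter whose mutant values all lay above the control values, as did 7.53% of all 9766 entries under the filter with any value.

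**Figure D3:**
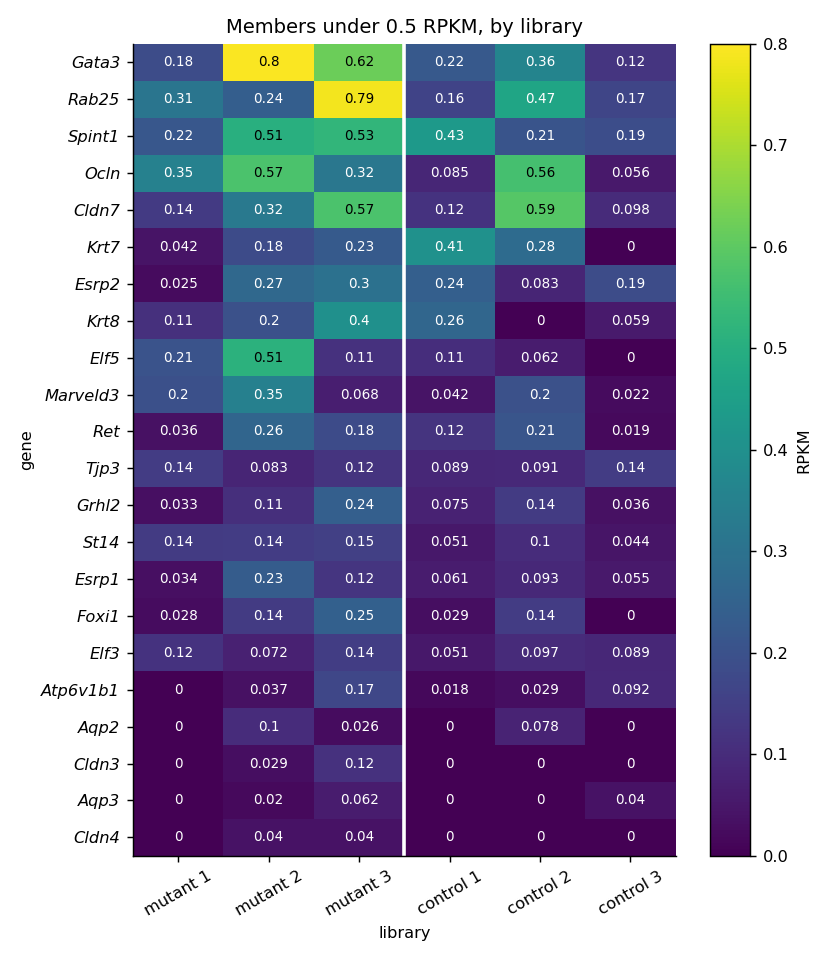
RPKM of the 22 members with a mean under 0.5 RPKM in each library, mutants left of the white line and controls right of it. Most rows overlap between genotypes, and Elf5 and St14 are the rows in which all mutant values exceed all control values.

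Libraries of one genotype differed in many members at once. Mutant 1 had the lowest of the mutant values for 27 of the 40 members, while it was the lowest mutant for 24.6% of all tested genes. Control 3 was the lowest control for 26 of the 40 members and for 47.7% of all tested genes. Mutant 3 was the highest mutant for 24 members, and control 2 was the highest control for 24. Summed over the 9 ureteric and collecting duct members, the level was 2.01, 7.9 and 7.6 RPKM in mutants and 2.74, 4.43 and 1.42 RPKM in controls. Mutant 1 therefore lay within the control range, and mutants 2 and 3 lay above it. For the 31 general epithelial members the sums were 41, 45.8 and 54.4 RPKM in mutants and 40.7, 45.4 and 31.4 RPKM in controls, groups that overlapped.

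**Figure D4:**
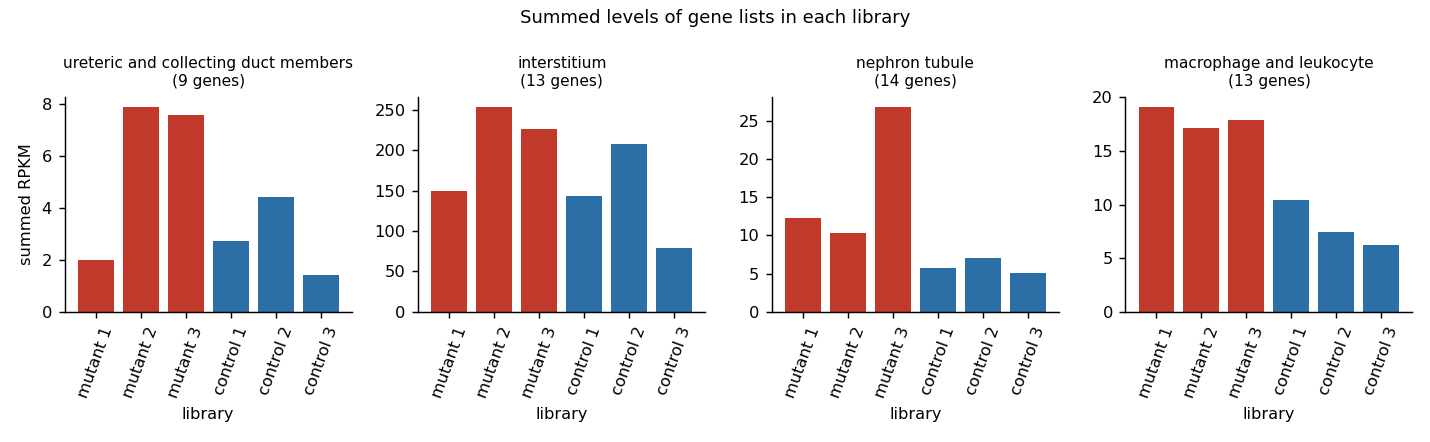
Summed RPKM per library of the 9 ureteric and collecting duct members and of marker lists for interstitium, nephron tubule, and macrophages and leukocytes, with mutants in red and controls in blue. Mutant 1 is the lowest mutant in the ureteric and interstitium panels, while nephron tubule and macrophage sums are higher in every mutant than in any control.

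Within each genotype the interstitium list ordered the libraries as the ureteric members did, and no other marker list of kidney cells did so. The 12 mesenchymal genes and regulators of the epithelial to mesenchymal transition also had that order. They summed to 397, 437 and 434 RPKM in mutants and 398, 444 and 367 RPKM in controls. The ureteric sums of mutants 2 and 3 were close (7.9 and 7.6 RPKM), and Calb1 alone gave 4.08 and 3.36 RPKM of them. Without Calb1 the sum of mutant 3 exceeds that of mutant 2, so the order shared with the interstitium list in mutants rests on Calb1. Mal, Cdh16 and Tfcp2l1 had another order, rising from mutant 1 to mutant 2 to mutant 3. The 13 interstitium genes summed to 150, 254 and 226 RPKM in mutants and 143, 208 and 79.2 RPKM in controls, the same order of libraries as the ureteric members within each genotype. Of the 12 tested, 0 passed limma's test, and 4 had an unadjusted p under 0.05, all higher in mutants (5.94% of all tested genes were). The 14 nephron tubule genes, lowest among mutants in mutant 2, summed to 12.3, 10.3 and 26.8 RPKM in mutants and 5.72, 7.09 and 5.14 RPKM in controls. Among the tested tubule genes Slc12a1 rose (the salt transporter of the thick ascending limb, log2 fold change 2.43, limma adjusted p = 0.00561), with a control mean of 0.326 RPKM. Mal, Cdh16 and Tfcp2l1 are also known from tubule segments of the nephron. The 13 macrophage and leukocyte genes, highest among mutants in mutant 1, summed to 19.1, 17.1 and 17.9 RPKM in mutants and 10.4, 7.41 and 6.22 RPKM in controls, and Fcer1g, Ctss and Tyrobp rose, the last not without any one mutant library. Control means were 0.73 RPKM for Fcer1g, 0.208 RPKM for Ctss and 0.433 RPKM for Tyrobp, so Slc12a1, Ctss and Tyrobp entered the test through their mutant values, and their calls are no support for a difference of the lists. The 8 endothelial genes summed to 4.99 to 5.12 RPKM in mutants and 2.7 to 5.01 RPKM in controls, and none of these lists had a marker at 0 in every library. Their part in the differences of the epithelial members was not tested. The 15 nephron progenitor genes summed to 700 to 810 RPKM in mutants and 897 to 953 RPKM in controls, and 1 rose (Tmem100) while 2 fell (Meox1 and Capn6). The call of Meox1 held in all 17 alternatives, that of Tmem100 in 10 and that of Capn6 in 7. The calls of Tmem100 and Capn6 were lost without mutant 1, mutant 2 or control 1, and that of Capn6 also without mutant 3 or control 2.

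Calls among other genes of the same pathways are given beside the 3.13% of all tested genes that passed in either direction. The lists are short, and their shares were not tested. Of 28 other ureteric bud and collecting duct genes 9 were tested, 1 rose and 1 fell. Wfdc2, a secreted protein of duct epithelia, had 15.4, 16 and 22 RPKM in mutants against 9.68, 12.8 and 9.34 RPKM in controls (log2 fold change 0.71, SE 0.17, limma adjusted p = 0.0474, past the threshold in 6 of 17 alternatives, adjusted p 0.00827 to 0.169). That call was lost without any one of mutants 1, 2 and 3 and control 1. Gfra1, the co-receptor for GDNF, fell to 16.3, 16.4 and 18 RPKM in mutants, against 27.2, 27.8 and 32.4 RPKM in controls. Its log2 fold change was -0.76 (SE 0.13, limma adjusted p = 0.00775, or 0.0565 without mutant 2). Gfra1 stood far above Ret (0.0194 to 0.26 RPKM over the libraries), and which cells its transcripts came from was not tested. Of 32 other apical junction and polarity genes 24 were tested, with a median log2 fold change of -0.16, and 1 passed in each direction. F11r, the junctional adhesion molecule A, rose to 23.4, 17.8 and 25 RPKM in mutants, against 10.6, 13.3 and 9.83 RPKM in controls (log2 fold change 0.94, limma adjusted p = 0.00993). Cgnl1 (paracingulin, a junctional scaffold) fell to 9.24, 8.77 and 11.1 RPKM in mutants, against 15.3, 17.5 and 14.5 RPKM in controls (log2 fold change -0.67, limma adjusted p = 0.028). The call of F11r held in 14 of 17 alternatives (limma adjusted p 0.0012 to 0.0661) and that of Cgnl1 in 12 (0.00448 to 0.147). F11r lost its call with no filter on low values and without mutant 1 or mutant 3. Cgnl1 lost its call with no filter, without the mean-variance trend, and without mutant 1, mutant 2 or control 1.

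**Figure D5:**
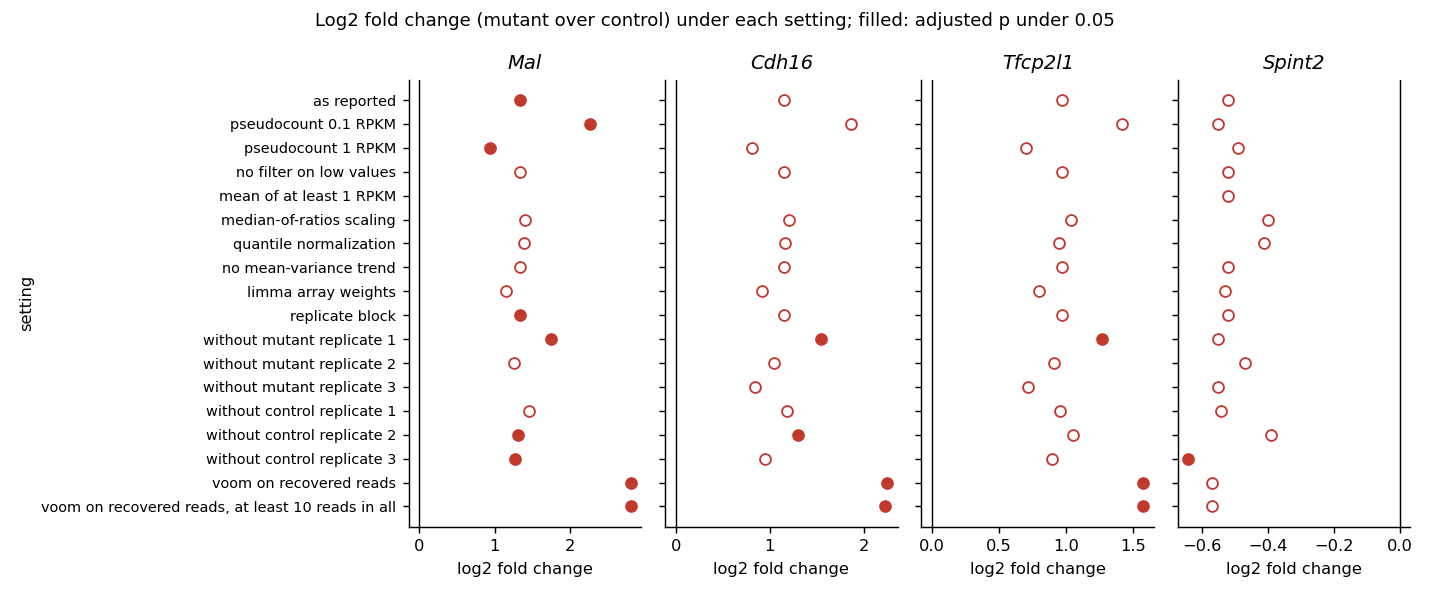
Log2 fold change (mutant over control) of Mal, Cdh16, Tfcp2l1 and Spint2 under each processing setting and with each library left out, where filled points passed an adjusted p of 0.05 and a missing point is a setting in which the gene was under the filter. The sign of each gene is the same in every setting drawn, and Mal passed in 8 of its 15 alternatives.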

How the data were processed

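Per the labels' protocols, total RNA of sorted progenitors was amplified (Ovation kit) and sequenced as paired reads. The submitters' processing notes name mm10 as the build, and list FastQC and limma. The authors deposited RPKM values for 27179 Entrez Gene entries in 6 libraries. How reads were counted, and with which annotation and strand setting, is not stated in the sources. Symbols were matched for 25275 entries. RPKM values fall on a grid of whole reads, from which depth and reads were worked out (whole within 0.001 of a read). For genes with few reads, reads are known up to a whole multiple.

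The genotype test was limma (version 3.58.1, R 4.3.3), run two-sided on log2(RPKM + 0.5) wherever the 6 libraries averaged 0.5 RPKM or more. It had a genotype term, a mean-variance trend and p-values adjusted by Benjamini-Hochberg over all tested genes. This scale understates changes of low genes. Each library is a separate pool. Positions came from GENCODE of the same build, promoters from RefSeq. Members with a mean of 0.5 RPKM or more, or with groups that do not overlap, could be given by library, the rest by range, and up to 4 genes of lowest p from each other list; Cldn3, Cldn4, Ret, Gata3, Spint1 and Mir17 were named besides. The members and lists were chosen with earlier results of these data known. One gene that the naming rule covers is not reported here.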

Additional observations from a re-analysis of the deposited data

How the results depend on the processing

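The median log2 fold change of the tested members stayed between 0.19 and 0.50 in every alternative run. The number of members called, 1 (Mal) as reported, was 0 with no filter on low values, with a mean of at least 1 RPKM, with median-of-ratios scaling, with quantile normalization, without the mean-variance trend and with limma array weights, settings in which 4 to 11 members had an unadjusted p under 0.05. It was 3 (Tfcp2l1, Mal and Cdh16) with voom on recovered reads, under either filter, an alternative added after the data were seen. Leaving out one library gave 0 to 3 members called and 148 to 1083 genes called, with 148 without mutant 2, 202 without mutant 1, 210 without control 1, 243 without mutant 3 and 1083 without control 3, against 422 as reported. Genes called numbered 143 with no filter, and 688 and 716 with voom. Among the members, 3 changed sign and none of them was called: Krt19 (-0.00 as reported) was 0.00 with a pseudocount of 1 RPKM, 0.06 with median-of-ratios scaling, and -0.19 to 0.11 with one library left out (above 0 without mutant 1, mutant 2, control 1 or control 2). Cldn6 (0.17 as reported) was -0.06 with array weights, and -0.28 to 0.52 with one library left out (below 0 without mutant 3, or without control 3 at -0.21). Ovol1 (-0.14 as reported) was -0.32 to 0.04 with one library left out (above 0 without mutant 3, or without control 1 at 0.01). The causes were not tested. Replicate numbers are shared between genotypes, but same-numbered libraries correlated by 0.0526, 0.157 and 0.153 in their deviations from the group means, so the numbers were not taken as pairs, although each mutant library correlated best with its own number. With a replicate block 393 genes and 1 member (Mal) were called. Members under the filter had at most 71 reads in a library, which limits what can be seen in them.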

Other observations

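Genes of neighbouring groups that have no place in the comparisons above were also measured. Of 8 other keratins 2 were tested, and Krt10, a keratin of stratified epithelium, fell to 2.54, 1.99 and 2.01 RPKM in mutants, against 4.41, 3.48 and 5.04 RPKM in controls (log2 fold change -0.84, SE 0.18, limma adjusted p = 0.0297, past the threshold in 10 of 17 alternatives and lost without any one of mutants 1, 2 and 3 and control 1). Krt17 was at 0 in all 6 libraries. Of 13 desmosome and hemidesmosome genes 7 were tested and 0 passed limma's test. At an unadjusted limma p under 0.05, 2 of them were lower in mutants (13.7% of all tested genes were) and 0 were higher. Of 14 other epithelial transcription factors 6 were tested and 0 passed limma's test, with none at an unadjusted p under 0.05. Another 6, all under the filter (Grhl3, Ehf, Klf5, Ovol3, Tfap2a and Tfap2b), had every mutant value above every control value, against 7.53% of all entries under the filter with any value. Tfap2b had 297 reads over the mutants and 68 over the controls, a depth-adjusted ratio of 4.78 (exact 95% binomial interval 3.66 to 6.32, counting error only). Ehf had 145 and 44 reads, a ratio of 3.61 (2.56 to 5.18), while Ovol3 had 5 and 2 reads, a ratio of 2.74 (0.448 to 28.7). Pax2 and Pax8, which act in both ureteric and nephron lineages, averaged 35.1 and 47.4 RPKM in mutants and 34.5 and 46.1 RPKM in controls. Klf5, a zinc finger factor of ureteric and other epithelia, was under the filter at 0.555, 0.708 and 0.65 RPKM in mutants and 0.236, 0.336 and 0.0412 RPKM in controls. These 6 genes were named after their values were seen.

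Of 12 mesenchymal genes and regulators of the epithelial to mesenchymal transition 11 were tested and 0 passed limma's test. At an unadjusted limma p under 0.05 there were 4, all higher in mutants (5.94% of all tested genes were). Snai2, a repressor that binds E-boxes of the kind printed above, had 21.3, 26.9 and 28.8 RPKM in mutants and 15.6, 19.7 and 15.2 RPKM in controls (log2 fold change 0.59, limma adjusted p = 0.068). Zeb1 averaged 35.3 RPKM in mutants and 39.2 RPKM in controls (limma adjusted p = 0.485). Among the renal vesicle genes 1 of 10 tested rose, Cdh6, the first cadherin of the forming nephron. Cdh6 had 10.7, 8.3 and 12.6 RPKM in mutants against 5.56, 5.68 and 5.12 RPKM in controls (log2 fold change 0.87, limma adjusted p = 0.0146). That call held in 14 of 17 alternatives and was lost with no filter on low values and without mutant 1 or mutant 3. Podocyte genes (6 tested) and erythroid genes (5 tested) gave 0 calls in limma. At an unadjusted limma p under 0.05, 1 podocyte gene was higher in mutants (5.94% of all tested genes were) and 1 was lower (13.7% were). No erythroid gene reached that threshold.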
